A study of Mus musculus with 21 samples.

Results

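The genes described here are 9 genes of mouse chromosome 16 that match the human 22q11.2 deletion region: Dgcr2, Slc25a1, Zdhhc8, Ranbp1, Dgcr8, Arvcf, Txnrd2, Cdc45 and Hira. They were chosen by name, and all 9 were found among the 24391 genes counted in each library. The libraries came from the brain, liver and skin of 2 Jak1 knock-in (KI) and 5 wild-type (WT) newborn mice, 21 in all, with 1 library per mouse and tissue. The mice were C57BL/6 per the labels and C57BL/6J per the study's methods, and were taken at P0, the day of birth. KI mice carried the heterozygous alleles Jak1 H595D/+;I596I/+;Y597Y/+, made by CRISPR-Cas9, of which H595D changes the JAK1 kinase and the other two are silent. The KI mice were offspring of a mosaic male, and the litters and sexes of the mice are not given in the sources used here.

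In humans, loss of this block on a single chromosome 22 causes the 22q11.2 deletion syndrome, which combines heart and palate defects with developmental and psychiatric traits, autism among them. The genes of the block are mostly of unrelated function and lie close together. Dgcr8 is the RNA-binding partner of Drosha, which cuts microRNA hairpins out of their primary transcripts. Hira deposits histone H3.3, Cdc45 is part of the helicase that opens DNA for replication, and Ranbp1 acts on the Ran GTPase that drives nuclear transport. Txnrd2 is the mitochondrial thioredoxin reductase and Slc25a1 exports citrate from mitochondria for lipid synthesis. Zdhhc8 attaches palmitate to proteins, Arvcf is a catenin that binds cadherins, and Dgcr2 is a membrane protein.

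In the NCBIM37 (mm9) genome, the build of the deposited files, the 9 genes span 1130.83 kb of chromosome 16, from 17839575 to 18970402. Dgcr2, Slc25a1, Zdhhc8, Ranbp1, Dgcr8 and Cdc45 lie on the minus strand, and Arvcf, Txnrd2 and Hira on the plus strand. For 6 of the 9 (66.67%), another protein-coding gene starts head to head on the other strand within 1000 bases, against 2383 of 22238 (10.72%) protein-coding genes of the annotation. These neighbours include Tssk1 for Dgcr2, Trmt2a for Ranbp1, Ufd1l for Cdc45, Tango2 (annotated as D16H22S680E) for Arvcf and Mrpl40 for Hira. The annotated starts of Ranbp1 and Trmt2a overlap by 54 bases and those of Cdc45 and Ufd1l by 209. Reads in exons that 2 genes share on opposite strands cannot be assigned by strand in these libraries. The largest such overlaps are 825 bases of Dgcr8 with Trmt2a, 11.3% of its exon length, and the 209 bases of Cdc45 with Ufd1l, 9.28% of its exon length.

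**Figure D1:**
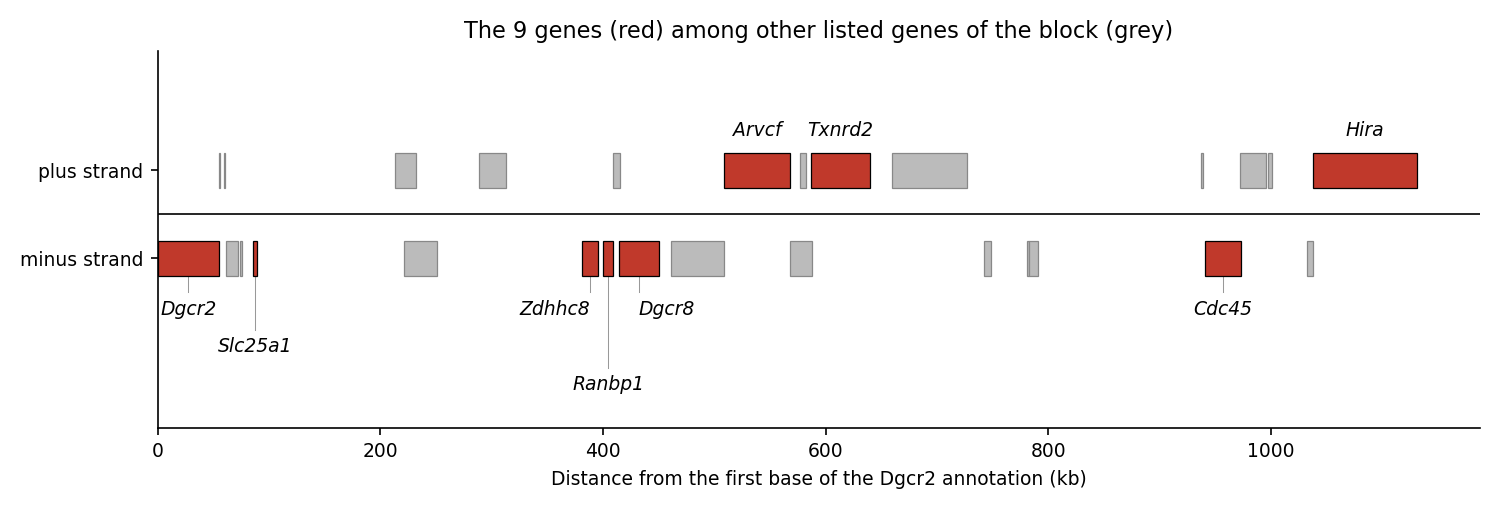
Map of the 9 genes (red) and the other listed genes of the block that lie between them (grey), with the distance in kb from the first base of the Dgcr2 annotation on the x axis and the strand on the y axis. The 9 genes span 1130.83 kb, with Arvcf, Txnrd2 and Hira on the plus strand and the others on the minus strand.

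Hira with Mrpl40 and Arvcf with Tango2 are shown in sequence, because a stretch of 269 or 78 bases lies between their annotated starts and the ratio of the genes of each pair did not overlap between KI and WT brains, as described with the pairs. Both stretches are given from NCBIM37 on the plus strand, which is the strand of Hira and Arvcf. Capitals mark a CCAAT box (CCAAT) or a GC box (GGGCGG), read on both strands. The letters TTTNNCGC, the core of an E2F site, were searched in the same way and were in neither stretch.
Mrpl40 to Hira, chr16:18876861-18877129: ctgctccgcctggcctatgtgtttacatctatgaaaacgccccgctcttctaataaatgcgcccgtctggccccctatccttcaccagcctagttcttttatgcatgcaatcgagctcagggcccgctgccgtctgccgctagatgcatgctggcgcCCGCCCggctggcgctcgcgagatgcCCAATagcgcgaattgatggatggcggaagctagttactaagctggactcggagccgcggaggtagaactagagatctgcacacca
Tango2 to Arvcf, chr16:18348197-18348274: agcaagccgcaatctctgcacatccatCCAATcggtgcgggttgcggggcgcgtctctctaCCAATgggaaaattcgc
The first stretch holds 1 CCAAT box and 1 GC box with a GC content of 57.99%, and the second holds 2 CCAAT boxes with a GC content of 57.69%. In windows of 300 bases around RefSeq starts (GRCm38.p6), the GC box was in at least 1 window of each of the 9 genes, against 35.66% of 32851 windows. CCAAT was in a window of Dgcr2, Dgcr8, Ranbp1, Cdc45, Slc25a1 and Arvcf, against 37.41% of windows. The E2F core was in those of Ranbp1 and Hira, against 5.169% of windows. The Cdc45 window had the lowest GC content of the 9 at 38.67%, where the median over all windows was 52.67%. The others lay above that median, from 62% for Arvcf (median of its 3 windows) to 74.33% for Dgcr8. These matches describe letters only.

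Dgcr8 also carries a microRNA in its own exons, Mir1306, whose 2 mature forms are given from RefSeq (GRCm38.p6) with the seed, bases 2 to 8, in capitals. The 79 bases of its hairpin are 1.08% of the Dgcr8 exon length, and the mature forms were not measured in these libraries.
mmu-miR-1306-3p: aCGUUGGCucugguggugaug
mmu-miR-1306-5p: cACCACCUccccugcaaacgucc

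The libraries held between 26549326 and 38388133 reads counted on genes. RNA integrity, per the study's methods, was lower in all skin samples than in the liver samples. It therefore cannot be told apart from tissue where skin and liver are compared. Beside the liver those methods name blood, not brain, as the samples of higher integrity. Each of the 9 genes had between 159 and 12675 reads in every library. Markers of each labelled tissue were present in its libraries, as summed CPM, which are counts scaled to the size of the library. Those of 6 neuronal genes were 5980 to 7150 in the brain and at most 75.5 in the liver and skin. Those of 6 hepatocyte genes were 199000 to 248000 in the liver and at most 30.3 in the skin. In the brain these hepatocyte genes were at 752 and 827 in the KI mice and at 28.6 to 2030 in the WT mice, highest in WT 5. Those of 6 epidermal and dermal genes were 36300 to 56800 in the skin, 71.1 to 384 in the brain and 310 to 1220 in the liver. Jak1, the edited gene, was at 183 and 188 CPM in KI brains against 114 to 186 in WT brains, at 196 and 208 against 147 to 173 in the liver and at 205 and 212 against 171 to 198 in the skin, and it was not called in any tissue. Whether the edited bases alter the alignment of its reads was not tested. One library stood apart, the brain of WT 5: its mean correlation with the other WT brains was 0.953, where the others had 0.975 to 0.978. KI against WT in the brain is therefore given with and without it.

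In WT mice the 9 genes ranged from nearly even levels in the 3 tissues to a strong preference for the liver, the skin or the brain. Levels between genes were compared per length, as RPKM, the CPM divided by the length in kilobases of the longest coding transcript. Dgcr8 had an even profile, with a mean of 6.64 RPKM in the liver, 5.88 in the brain and 5.45 in the skin, a 1.22-fold span. Ranbp1 had 89.0, 75.0 and 70.5 RPKM in the brain, skin and liver, a 1.26-fold span, but its brain mean rested on WT 5, at 153 RPKM where the other 4 brains had 68.7 to 81.6. Without that library the brain stood at 73.0 RPKM, between skin and liver, and Ranbp1 spanned 1.06-fold. At the other end, Cdc45 spanned 8.25-fold, Txnrd2 5.18-fold, Zdhhc8 3.54-fold and Arvcf 2.66-fold between their highest and lowest tissue.

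**Figure D2:**
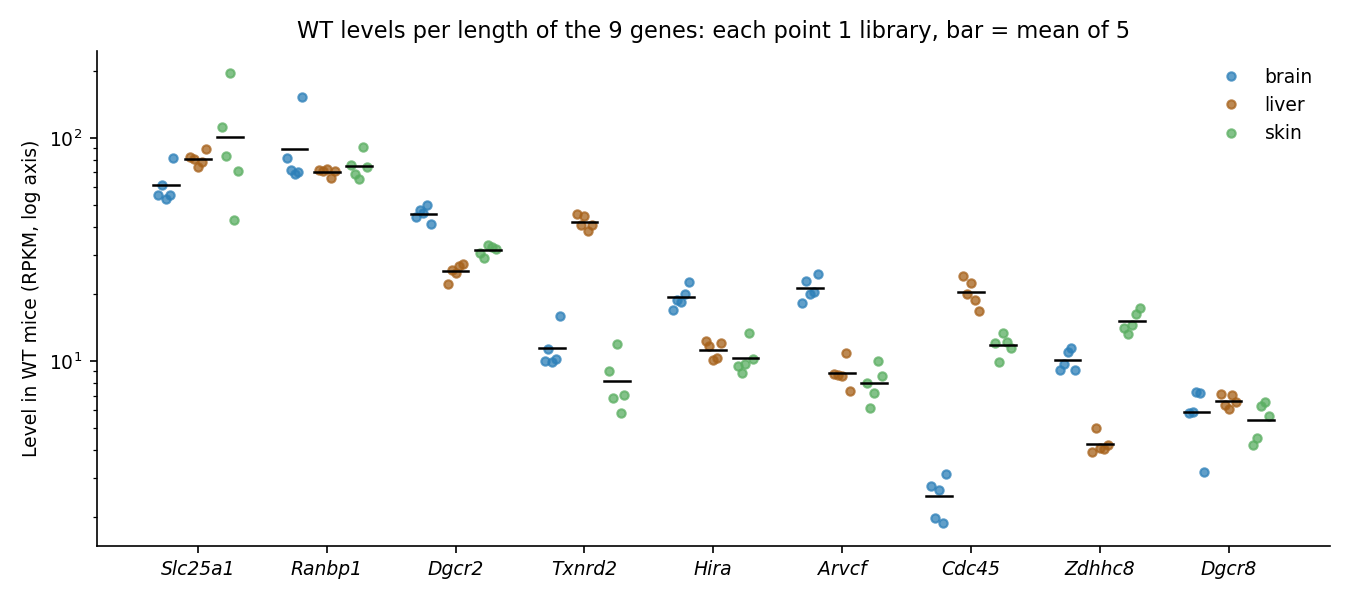
RPKM on a log axis for each of the 9 genes in WT brain, liver and skin, each point 1 library and each bar the mean of 5. Ranbp1 and Slc25a1 stand highest, Cdc45 is lowest in the brain at a mean of 2.47 RPKM, and the high Ranbp1 point in the brain is WT 5.

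In the brain the order by mean was Ranbp1, Slc25a1 (61.5 RPKM), Dgcr2 (45.7), Arvcf (21.2), Hira (19.3), Txnrd2 (11.5), Zdhhc8 (10.1), Dgcr8 (5.88) and Cdc45 (2.47), a 36.1-fold range. Ranbp1 and Slc25a1, Arvcf and Hira, and Txnrd2 and Zdhhc8 overlapped between libraries, and the other neighbours in this order did not. In the liver Slc25a1 (80.7 RPKM) stood above Ranbp1 (70.5) and Txnrd2 (42.1), followed by Dgcr2 (25.2), Cdc45 (20.4), Hira (11.3), Arvcf (8.84), Dgcr8 (6.64) and Zdhhc8 (4.25). Dgcr2 and Cdc45, and Hira and Arvcf, overlapped there. In the skin the order was Slc25a1 (100.7 RPKM), Ranbp1 (75.0), Dgcr2 (31.4), Zdhhc8 (15.1), Cdc45 (11.8), Hira (10.3), Txnrd2 (8.13), Arvcf (7.97) and Dgcr8 (5.45). Without the brain of WT 5 the brain order was the same over a 31.6-fold range, with Slc25a1 (56.4 RPKM) below Ranbp1 in all libraries. Only Ranbp1 from Dgcr2 and Dgcr2 from Zdhhc8 were separated in all skin libraries.

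Cdc45 was at 2.74, 1.99, 2.64, 1.87 and 3.11 RPKM in the 5 WT brains, at 23.97, 20.04, 22.4, 18.8 and 16.8 in the livers and at 12.1, 9.90, 13.3, 12.2 and 11.4 in the skins. The liver lay above the skin and the skin above the brain, with no overlap. On the log2 scale Cdc45 fell by 3.04 in the brain against the liver (SE 0.162, edgeR adjusted p = 5.0e-11) and by 2.25 against the skin (SE 0.157, edgeR adjusted p = 2.5e-09), and was 0.79 higher in the liver than in the skin (SE 0.149, edgeR adjusted p = 2.0e-04). The 14 other genes listed for the replication helicase, the Mcm and Gins subunits among them, were all called lower in the brain than in the liver, as were 40.2% of all genes, with a median log2 difference of -2.64 against 0.06 over all genes. They were all called lower in the brain than in the skin as well (40.3% of all genes), and 12 of 14 were called higher in the liver than in the skin (32.5% of all genes). The summed CPM of 8 markers of dividing cells was 1880 to 2670 in WT livers, 746 to 942 in WT skins and 98.2 to 204 in WT brains. In bulk tissue, fewer cells of a type and less RNA per cell cannot be told apart.

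Txnrd2 was at 45.5, 40.9, 44.6, 38.5 and 40.9 RPKM in WT livers, at 9.95, 11.4, 9.87, 10.2 and 15.9 in brains and at 9.06, 6.80, 11.9, 5.82 and 7.04 in skins. Every liver lay above every other library, whereas brain and skin overlapped. Txnrd2 fell by 1.87 on the log2 scale in the brain against the liver (SE 0.185, edgeR adjusted p = 1.1e-07) and was 2.37 higher in the liver than in the skin (SE 0.189, edgeR adjusted p = 1.6e-08). Its difference of 0.50 between brain and skin (edgeR adjusted p = 0.0200) rested on WT 5: without that mouse it was 0.29 (edgeR adjusted p = 0.173). Of 9 other genes listed with Txnrd2 for redox defence, 8 were called higher and 1 lower in the liver than in the skin, where 32.5% of all genes were called higher. The brain had 2 of the 9 higher and 6 lower than the liver by the same test (43.3% and 40.2% of all genes). Against the skin it had 2 higher and 2 lower (39.1% and 40.3% of all genes).

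Zdhhc8 had the reverse preference, with 3.91, 5.00, 4.09, 4.04 and 4.21 RPKM in WT livers, 9.07, 9.71, 11, 11.4 and 9.13 in brains and 14.1, 13.2, 14.5, 16.2 and 17.3 in skins. The tissues did not overlap. Zdhhc8 was 1.25 higher in the brain than in the liver (SE 0.107, edgeR adjusted p = 1.9e-08) on the log2 scale, and fell by 0.58 in the brain against the skin (SE 0.105, edgeR adjusted p = 1.2e-04) and by 1.82 in the liver against the skin (SE 0.109, edgeR adjusted p = 6.0e-10). Among the 19 other listed palmitoyltransferases of the Zdhhc family, 10 were called higher and 4 lower in the brain than in the liver, against 43.3% and 40.2% of all genes. Against the skin, the brain had 9 of them higher and 7 lower by the same test (39.1% and 40.3% of all genes), and the liver 6 higher and 6 lower (32.5% and 39.8%).

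Arvcf, Hira and Dgcr2 were highest in the brain. Arvcf was at 18.2, 22.9, 20.1, 20.4 and 24.5 RPKM in WT brains, above all livers (7.32 to 10.9) and all skins (6.15 to 10.02), and was 1.26 (SE 0.138) and 1.42 (SE 0.139) higher there on the log2 scale. Hira was 0.78 (SE 0.119) and 0.91 (SE 0.119) higher in the brain than in the liver and skin, and Dgcr2 0.86 (SE 0.0872) and 0.55 (SE 0.0867) higher. The edgeR adjusted p of these 6 differences ran from 1.3e-07 to 3.0e-05. Dgcr2 also fell by 0.31 in the liver against the skin (SE 0.0867, edgeR adjusted p = 0.00471). For Hira that comparison gave 0.13 (edgeR adjusted p = 0.346), and 0.27 without WT 4 (edgeR adjusted p = 0.0472).

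Slc25a1 fell by 0.71 in the brain against the skin (SE 0.284, edgeR adjusted p = 0.0338), a call that was lost without WT 1 (-0.63, edgeR adjusted p = 0.127) or WT 3 (-0.28, edgeR adjusted p = 0.302). Its WT skin libraries were the least alike of any group, with 217, 162.5, 378, 82.4 and 136.5 CPM, a 4.58-fold span against 1.18-fold in the liver. Ranbp1 and Dgcr8 were called in none of the 3 tissue comparisons, with unadjusted p under 0.05 in none and DESeq2 calling Ranbp1 higher in the brain than in the liver (0.40, DESeq2 adjusted p = 0.063). With WT 3 left out edgeR called that difference of Ranbp1 too (0.43, edgeR adjusted p = 0.0919), whereas with WT 5 left out it was 0.051 (edgeR adjusted p = 0.660) and the brain stood at -0.052 against the skin. With WT 5 left out edgeR also called Dgcr8 higher in the liver than in the skin (0.30, edgeR adjusted p = 0.0998). Called members numbered 6 of 9 between brain and liver, 7 of 9 between brain and skin and 4 of 9 between liver and skin, where 83.4%, 79.4% and 72.3% of all genes tested were called. Without WT 5 they numbered 6, 6 and 5, and Txnrd2 between brain and skin was the call lost. Of all genes, 84.2% were then called between brain and liver and 80.7% between brain and skin. Between liver and skin, 5614 of 17211 genes were then called higher and 7021 lower.

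For each of the 9 genes, the genes of most similar pattern were found by Pearson's r of log2 CPM over the 15 WT libraries. The points share tissue, mouse and library, so these values are descriptions. Cdc45 was closest to Mcm3 (r = 0.995) and Mcm4 (r = 0.994), both subunits of the helicase that Cdc45 joins. Slc25a1 was close to Acaca (r = 0.908), the acetyl-CoA carboxylase of fatty acid synthesis, after Fam195a (r = 0.917), and Dgcr8 to Dhx9 (r = 0.955), an RNA helicase, and Tubgcp6 (r = 0.915). The leading pair was Tesk1 (r = 0.992) and Trank1 (r = 0.987) for Dgcr2, Psmc4 (r = 0.967) and Set (r = 0.950) for Ranbp1, and Ddt (r = 0.987) and Lin28a (r = 0.982) for Txnrd2. For Hira it was Ralgps2 (r = 0.975) and Gsk3a (r = 0.974), for Zdhhc8 Gfra2 and Rftn2 (r = 0.988 each), and for Arvcf Wsb2 (r = 0.975) and Ciapin1 (r = 0.972).

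The KI and WT mice were then compared within each tissue, to ask whether the Jak1 alleles go with a change of these genes. None of the 9 was called by edgeR at an adjusted p under 0.1 in any tissue, and all genes tested were called at rates of 0% (brain), 5.57% (liver) and 0.0247% (skin). At an unadjusted p under 0.05 the brain had 0 of 9, the liver 2 and the skin 2, where 10.6%, 17.9% and 4.57% of all genes lay under it. DESeq2 called 0, 1 and 0 of the 9, and 4.28%, 10.2% and 0.707% of all genes to which it gave an adjusted p. Of simulated 2-fold changes with the means and spread of these libraries, edgeR recovered 19% for brain, 68% for liver and 37% for skin. The changed genes were drawn at random from all genes tested, at any read count, so these shares are not those of the 9 genes. In the brain the SE of the 9 genes ran from 0.112 for Dgcr2 to 0.341 for Ranbp1. Nearly all log2 fold changes of the 9 genes lay within 0.40 of 0, the exception being Ranbp1 in the brain at -0.61.

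**Figure D3:**
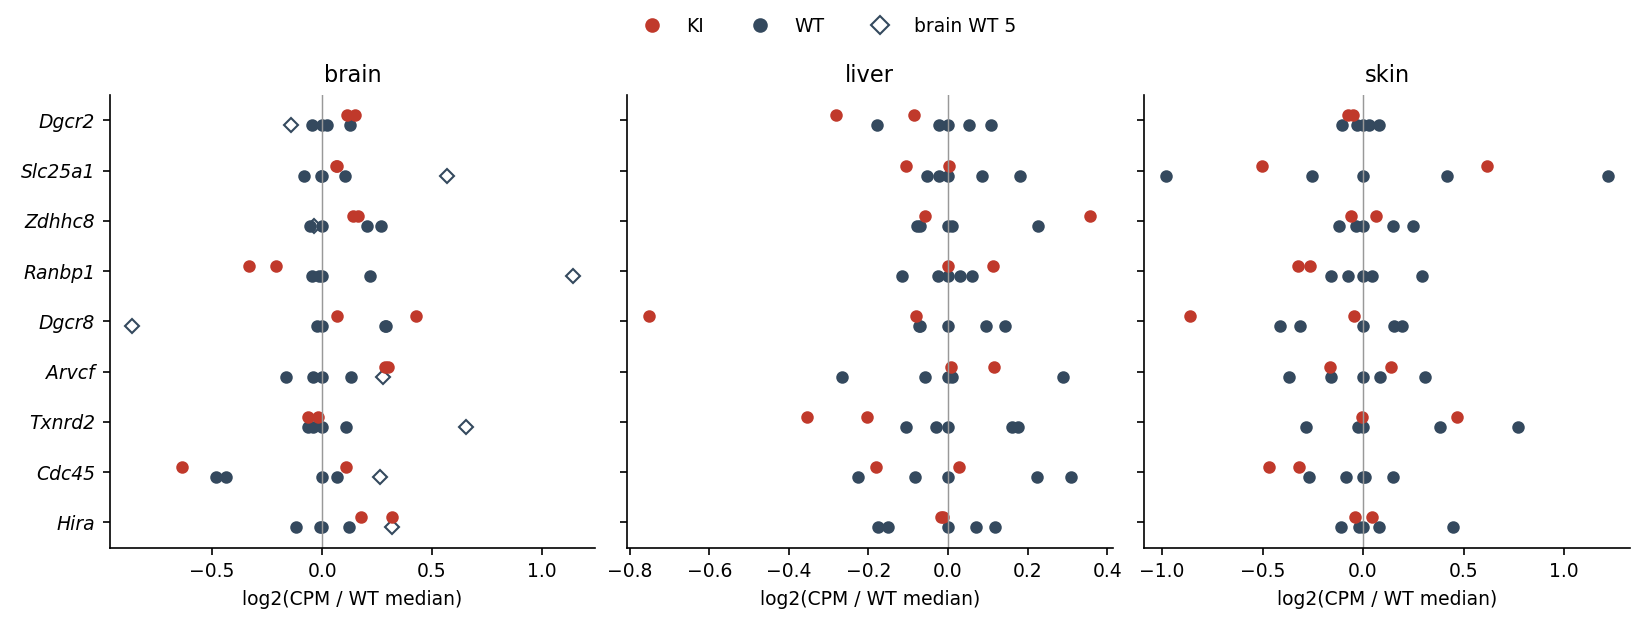
Log2 of CPM over the WT median of the tissue for each of the 9 genes in KI (red) and WT (dark) libraries of the brain, liver and skin, each point 1 library; the x axes differ between tissues. Brain WT 5 (open diamond) lies far from the other WT brains for Ranbp1, Dgcr8, Txnrd2 and Slc25a1, and KI and WT points do not overlap for Ranbp1 and Arvcf in the brain, Dgcr8 and Txnrd2 in the liver, and Ranbp1 and Cdc45 in the skin.

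In the brain, Ranbp1 was at 82.0 and 75.3 CPM in the KI mice and at 110.4, 94.0, 91.9, 94.8 and 209 in the WT mice. Both KI libraries lay below all WT libraries, and WT 5 was far above the rest. The log2 fold change of -0.61 (SE 0.341, edgeR adjusted p = 0.587) was reduced to -0.30 without WT 5 (SE 0.0982, edgeR adjusted p = 0.120). Arvcf was at 149 and 150.1 CPM in the KI mice and at 109, 133.5, 119, 122 and 148 in the WT mice. Here the KI libraries lay above all WT libraries, but WT 5 was next to them. Its log2 fold change of 0.24 (SE 0.137, edgeR adjusted p = 0.591) became 0.33 without WT 5 and was then called (SE 0.0858, edgeR adjusted p = 0.0676), where 10.5% of 16222 genes were called.

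Members whose KI and WT brains did not overlap were thus 2 of 9, with 27% of all genes tested in the same state. Without WT 5 they were 4 of 9 against 35.3%, Dgcr2 and Hira being added above the WT range. Hira was at 109 and 119.9 CPM in the KI mice and at 88.6, 96.2, 95.7, 105 and 119.9 in the WT mice. The KI libraries exceeded 4 of the WT libraries and reached no further than WT 5. The log2 fold change was 0.18 (SE 0.141, edgeR adjusted p = 0.694), and 0.27 without WT 5 (SE 0.0848, edgeR adjusted p = 0.108). Dgcr8 was at 34.6 and 44.4 CPM in the KI mice against 33.0, 32.5, 40.4, 40.3 and 18.1, Txnrd2 at 23.96 and 23.3 against 23.6, 26.2, 23.2, 24.3 and 38.2, and Slc25a1 at 121.5 and 122 against 116, 125, 109.9, 116 and 172. WT 5 was the extreme library in all 3, lowest for Dgcr8 and highest for Txnrd2 and Slc25a1, and the KI libraries lay among or beside the other WT libraries. With and without WT 5 the log2 fold change was 0.26 and 0.13 for Dgcr8, -0.20 and -0.025 for Txnrd2 and -0.072 and 0.078 for Slc25a1. For Dgcr2, Zdhhc8 and Cdc45 the log2 fold changes were 0.14, 0.07 and -0.13, with 95% intervals of -0.12 to 0.39, -0.25 to 0.39 and -0.83 to 0.57, and without WT 5 they were 0.12, 0.060 and -0.0077.

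The brain fold changes followed the length of the genes. The 4 genes with a longest coding transcript of at most 2143 bases (Ranbp1, Slc25a1, Txnrd2 and Cdc45) all had values below 0, and the 5 of at least 4045 bases (Dgcr2, Hira, Dgcr8, Arvcf and Zdhhc8) all had values above 0. The same trend ran through the genome: 82.7% of 4283 genes of the short class lay below 0, with a median of -0.32, and 77.3% of 4407 genes of the long class lay above 0, with a median of 0.18 (Spearman's rho of fold change with length 0.568 across 14301 genes, which are not independent replicates). The summed CPM of the 4 short genes over that of the 5 long genes was 0.384 and 0.360 in the KI brains, 0.507, 0.453, 0.421 and 0.409 in WT 1 to 4 and 0.779 in WT 5. Without WT 5 the medians of all genes were -0.16 and 0.12, and 3 of the 4 short and all 5 long genes kept their side of 0. With the length trend taken out, Ranbp1 was at -0.12, and at 0.02 once WT 5 was left out too, and Arvcf was at 0.11 and 0.23.

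**Figure D4:**
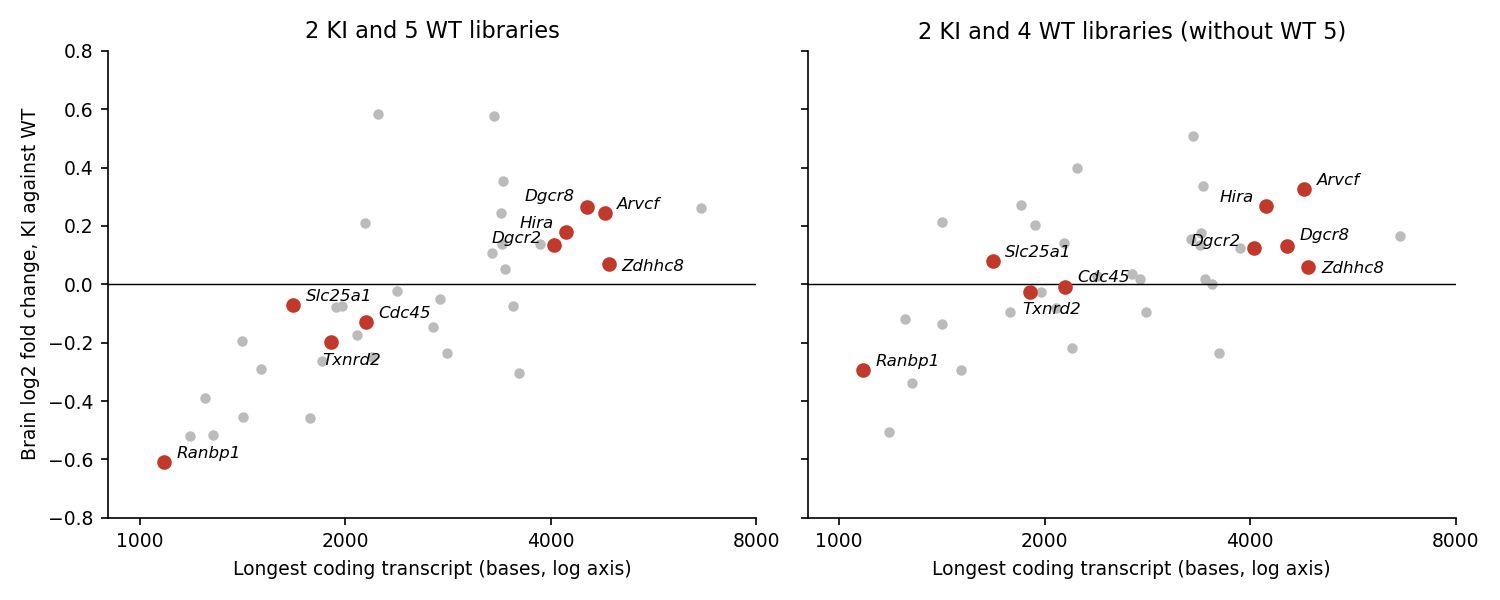
Brain log2 fold change of KI against WT (y axis) by length of the longest coding transcript in bases (x axis, log scale) for the 9 genes (red) and other genes of the block (grey), with all libraries and without WT 5. Ranbp1 goes from -0.61 to -0.30 and Arvcf from 0.24 to 0.33, and the 5 longest of the 9 genes stay above 0. Gsc2 and Tssk1 lie beyond the y axis in at least 1 panel and are not drawn.

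In the liver, Txnrd2 was at 48.1 and 43.4 CPM in the KI mice and at 62.6, 54.3, 62.0, 51.5 and 55.4 in the WT mice. Both KI libraries were below every WT library. The log2 fold change was -0.32 (SE 0.108, 95% interval -0.56 to -0.08, edgeR adjusted p = 0.165). The threshold was passed with DESeq2 (-0.32, DESeq2 adjusted p = 0.0966), which called 10.2% of all genes. It was also passed with WT 4 left out (-0.36, edgeR adjusted p = 0.0790). In that fit 1290 of 14855 genes were called, against 833 of 14966 with all libraries. Dgcr8 was at 12.5 and 19.9 CPM in the KI mice and at 23.3, 20.06, 20.03, 22.5 and 21.1 in the WT mice. The KI libraries were below all WT libraries, KI 2 by a narrow margin. Its log2 fold change was -0.40 (SE 0.172, edgeR adjusted p = 0.269), and it was -0.08 without KI 1 and -0.77 without KI 2.

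These 2 of 9 genes compare with 24.4% of genes tested whose liver libraries did not overlap. The 7 others overlapped, with log2 fold changes from -0.17 for Dgcr2 to 0.14 for Zdhhc8. Summed CPM of 5 leukocyte markers was 343 and 410 in KI livers and 226 to 266 in WT livers, and that of 8 markers of dividing cells 1660 and 1680 against 1880 to 2670. Summed CPM of 5 erythroid markers, of the red cell precursors that the newborn liver holds, was 1410 and 1260 in KI livers and 1430 to 1940 in WT livers. Their part in the values of Txnrd2 and Dgcr8 was not tested.

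In the skin, Cdc45 was at 23.8 and 21.5 CPM in the KI mice and at 30.0, 24.7, 33.0, 29.7 and 28.0 in the WT mice. Ranbp1 was at 73.4 and 76.5 CPM in the KI mice and at 94.8, 87.2, 82.2, 112.6 and 91.9 in the WT mice. Both genes were lower in each KI library than in any WT library, as were 4.84% of genes tested, where 9.75% did not overlap in either direction. The log2 fold changes were -0.36 for Cdc45 (SE 0.140, 95% interval -0.68 to -0.04) and -0.32 for Ranbp1 (SE 0.134, 95% interval -0.63 to -0.01), both at an edgeR adjusted p of 0.999. KI and WT overlapped for the 7 others. Slc25a1 varied most, with 114.6 and 249 CPM in the KI mice, inside the WT range, and a 95% interval from -1.38 to 1.17.

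The genes listed with Cdc45 for the replication helicase had the same direction in the skin. All 14 lay below 0 on the log2 scale, with a median of -0.27 against -0.03 over all genes, and 9 of the 14 had both KI libraries below all WT libraries (4.84% of all genes). Cdc6, which loads the helicase, was at -0.47 (SE 0.198) and Mcm4 at -0.22 (SE 0.0942). None of the 14 was called by edgeR or by DESeq2, and 2 had an unadjusted p under 0.05 (4.57% of all genes). Summed markers of dividing cells were at 714 and 832 CPM in KI skins and 746 to 942 in WT skins, and leukocyte markers at 74.0 and 78.4 against 41.9 to 58.6. Their part was not tested. In the liver these 14 genes had a median of -0.20 with 11 below 0. Pole, a replicative DNA polymerase, was at -0.41 there (SE 0.115, edgeR adjusted p = 0.102), which DESeq2 called, and Mcm2 at -0.38. In the brain the median was -0.03, with 9 below 0, Gins1 at -0.78 and Gins4 at -0.37. Without WT 5 it was -0.013 with 7 below 0, Gins1 at -0.42 and Gins4 at -0.17.

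Genes listed with the other members were followed in the same way. With Dgcr8, 12 other genes of microRNA processing were tested: Ago2, the slicing Argonaute, was called lower in KI livers (-0.54, SE 0.101, edgeR adjusted p = 0.0293), where 1.68% of all genes were called lower. Srrt was at -0.17 there, and Drosha was at 0.31 (SE 0.111, edgeR adjusted p = 0.389) and Ago1 at 0.38 in the brain. Without WT 5 edgeR called 3 of the 12 higher in KI brains, where 4.14% of all genes were called higher: Drosha (0.34), Ago1 (0.32) and Ago2 (0.43, against 0.70 with an SE of 0.725 over all libraries). In the skin Srrt was at -0.27 and Ago3 at 0.38, and edgeR and DESeq2 called none of the 12, with 0 at an unadjusted p under 0.05. Of 10 genes that use citrate for lipid synthesis, listed with Slc25a1, all 10 were below 0 in KI livers, with a median of -0.42 against -0.02 over all genes. Acaca (-0.60, SE 0.136, edgeR adjusted p = 0.0567) and Scd1 (-0.52, SE 0.139, edgeR adjusted p = 0.0939) were called lower by edgeR (1.68% of all genes), and 6 were called by DESeq2 (10.2% of all genes). In the skin all 10 were below 0 too, with a median of -0.32, and edgeR and DESeq2 called none of them, with 0 at an unadjusted p under 0.05. In the brain Idh1 was at -0.30 and Fasn at 0.31, and at -0.24 and 0.29 without WT 5. Slc25a1 itself was at 87.2 and 93.9 CPM in those livers, 1 inside and 1 below the WT range of 90.4 to 106, with a log2 fold change of -0.09 (95% interval -0.30 to 0.12).

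Of 9 genes of histone H3.3 and its deposition, listed with Hira, Ubn2 was called lower in KI livers (-0.36, SE 0.0895, edgeR adjusted p = 0.0724), as were 1.68% of all genes. Hira was at 0.01 there (95% interval -0.23 to 0.25). Of 9 catenins and cadherins listed with Arvcf, all 9 were above 0 in KI brains, with a median of 0.32 against -0.02 over all genes. Among them 6 had both KI libraries above all WT libraries, as did 11.2% of genes tested, led by Jup (0.51, SE 0.161, edgeR adjusted p = 0.351) and Ctnnd1 (0.43, SE 0.170, edgeR adjusted p = 0.433). None of the 9 was called by edgeR or DESeq2, and 4 had an unadjusted p under 0.05 (10.6% of all genes). These are long transcripts, of 3205 to 6362 bases, and 6 of the 9 belong to the long class of at least 4045 bases, whose median over all genes was 0.18 in this comparison with 77.3% above 0. Without WT 5 the median of the 9 was 0.33 against 0.12 in the long class, the same number, 6, lay above all WT libraries (17.3% of all genes), and edgeR called 5 higher (4.14% of all genes), Jup at 0.54 and Ctnnd1 at 0.35 among them. The part of length in these values was not tested. Ctnnd1 was at -0.16 in the liver and 0.12 in the skin.

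Of the genes listed with Ranbp1 (8 of the Ran cycle), Txnrd2 (9) and Zdhhc8 (19), edgeR called none in any tissue with all libraries. DESeq2 called Prdx3, a mitochondrial peroxiredoxin, in the brain (-0.51 with edgeR, SE 0.135), where it called 4.28% of all genes, and no other. An unadjusted p under 0.05 was met in the brain by Prdx3 and Zdhhc9 (0.32), in the liver by Txnrd3 (-0.61) and Zdhhc15 (-0.50), and in the skin by Rcc1 (-0.30), the exchange factor that loads Ran with GTP. Of all genes, 10.6%, 17.9% and 4.57% met it in the brain, liver and skin. Without WT 5, edgeR called Prdx3 (-0.50) and another 3 of the 9 redox genes lower in KI brains, where 6.32% of all genes were called lower, and Zdhhc9 (0.31) higher (4.14% of all genes). Nutf2, which carries Ran into the nucleus, was at -0.56 in the brain, -0.36 without WT 5, and -0.37 in the skin. In the liver all 8 genes of the Ran cycle were below 0, with a median of -0.09 against -0.02 over all genes, while Ranbp1 was at 0.07.

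None of the other genes listed for the block was called by edgeR in a KI comparison of a single tissue, out of 30 tested for brain, 26 for liver and 26 for skin. At an unadjusted p under 0.05 there were 2, 2 and 0 of them (10.6%, 17.9% and 4.57% of all genes). DESeq2 called Mrpl40 in the brain (4.28% of all genes) and Aifm3 in the liver (10.2% of all genes). In the brain 7 of the 30 did not overlap (27% of all genes), the furthest being Scarf2, a scavenger receptor (0.57, SE 0.291), Mrpl40, a protein of the mitochondrial ribosome (-0.52, SE 0.142, edgeR adjusted p = 0.292), and 2510002D24Rik (-0.52, SE 0.240). Without WT 5 these were at 0.51, -0.51 and -0.34, 9 of 29 did not overlap (35.3% of all genes), and edgeR called 2 of 29 (10.5% of all genes), Mrpl40 (edgeR adjusted p = 0.0521) and Med15, a Mediator subunit (0.34, edgeR adjusted p = 0.0992). In the liver 3 of 26 did not overlap (24.4% of all genes): Gp1bb (0.44, SE 0.220), Scarf2 (-0.31, SE 0.168) and Mrpl40 (0.30, SE 0.121).

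The head-to-head pairs were compared within each library, as the log2 ratio of the reads of the member to those of its neighbour, which does not depend on the scaling of the libraries. In the brain the ratio of Hira to Mrpl40 was 1.99 and 2.03 in the KI mice and 0.96, 1.17, 1.36, 1.49 and 1.58 in the WT mice. The ratio of Arvcf to Tango2 was 1.59 and 1.77 in the KI mice and 0.80, 1.25, 1.04, 1.14 and 1.48 in the WT mice. In both pairs the KI libraries were above all WT libraries, WT 5 included, by 0.70 and 0.54 in the mean. The levels of both neighbours did not overlap either: Mrpl40 was at 27.4 and 29.2 CPM in KI brains against 37.3 to 45.6 in WT brains, and Tango2 at 49.2 and 44.0 against 52.8 to 62.4.

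In the liver the ratio of Hira to Mrpl40 went the other way, with 0.23 and 0.44 in the KI mice, below the WT range of 0.46 to 0.87. It did not pass either (exact permutation p = 0.143, adjusted p = 0.408). For Hira with Mrpl40 and Arvcf with Tango2 in the brain, the exact permutation p over all 21 splits of the mice was 0.0476, two-sided, which is the smallest this design allows. Over the 15 ratios tested the adjusted p was 0.238 for both (exact permutation), so neither passed. The pairs of Ranbp1 with Trmt2a and Cdc45 with Ufd1l gave exact permutation p of 0.143 or more in every tissue, and Tssk1 had too few reads for a ratio. Mrpl40 and Tango2 are shorter than Hira and Arvcf, so the length trend of the brain runs in the direction of both brain ratios, and its part in them was not tested. In the liver the trend was weaker and reversed (Spearman's rho -0.217), with medians of 0.06 in the short class and -0.10 in the long class. That trend runs in the direction of the liver ratio of Hira to Mrpl40, and its part was not tested.

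**Figure D5:**
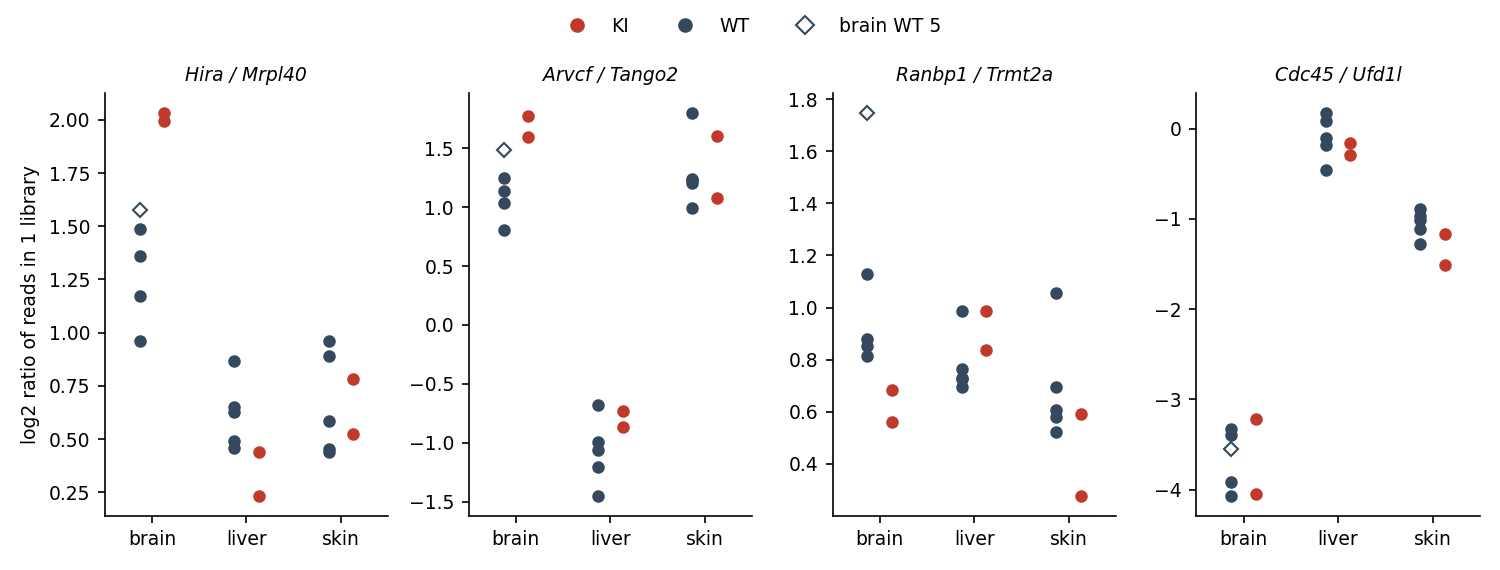
Log2 ratio of the reads of each of 4 members to those of its head-to-head neighbour within 1 library, by tissue, in KI (red) and WT (dark) mice, with brain WT 5 as an open diamond; the y axes differ between panels. KI points lie above all WT points for Hira over Mrpl40 and Arvcf over Tango2 in the brain, and below them for Ranbp1 over Trmt2a in the brain and for Hira over Mrpl40 in the liver.

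The KI effects of the 9 genes were last compared between tissues by an interaction term over all 21 libraries. No difference was called by edgeR for any member, where 2.81% of genes tested were called between brain and liver, 0% between brain and skin and 0.0997% between liver and skin. At an unadjusted p under 0.05 there was 1 of 9 between brain and liver (15.1% of all genes), 0 between brain and skin (7.41%) and 0 between liver and skin (5.54%), and DESeq2 called 1, 0 and 0 (8.74%, 0.311% and 0.662%). That 1 gene was Dgcr2, whose fold change was 0.41 higher in the brain than in the liver (SE 0.149, 95% interval 0.10 to 0.72, edgeR adjusted p = 0.186; DESeq2 0.40, DESeq2 adjusted p = 0.0567). Dgcr2 was at 248 and 255 CPM in KI brains, against 208 to 251 in WT brains, and at 60.05 and 68.7 CPM in KI livers, against 64.5 to 78.6 in WT livers. Among the other genes of the block, Mrpl40 was the 1 called between brain and liver (-0.72, SE 0.193, edgeR adjusted p = 0.0749). Without WT 5 the difference was 0.34 for Dgcr2 (edgeR adjusted p = 0.180) and -0.75 for Mrpl40 (edgeR adjusted p = 0.0404). Dgcr2 belongs to the long class, and Mrpl40 is shorter than Hira. The opposite length trends of brain and liver run in the direction of both differences, and their part was not tested.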

How the data were processed

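RNA was measured in 21 libraries, from the brain, liver and skin of 2 KI and 5 WT newborn mice. Per the study's methods, libraries were made with a TruSeq kit that does not mark strand, and the authors aligned the trimmed paired-end reads to mm9 with TopHat2. Per the labels, the counts deposited by the authors came from HTSeq; they are whole reads per gene symbol, not normalized. The counting mode and annotation are not given in the sources used here. In each file 5 summary lines were left out. Of uniquely aligned reads, 80.5% to 87.6% were counted on genes. Depth ran from 26549326 to 38388133 reads per library.

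The 9 genes, the other gene lists and the rule for the genes named were chosen with earlier results of these data known. The rule took all 9 genes, from the other genes of the block those called and up to 3 per tissue with the largest fold change among those not overlapping, the head-to-head neighbours, up to 2 genes per list and tissue with the smallest unadjusted p, the 2 genes most like each member, and Jak1. Aifm3 and Med15, outside this rule, were named after their values were seen. Tests across all genes used edgeR 4.0.16 (quasi-likelihood, filterByExpr, TMM; R 4.3.3), and a gene was called at a Benjamini-Hochberg adjusted p under 0.1 over all genes tested. KI and WT were compared within each tissue, the tissues over the 15 WT libraries, and the interaction over all 21. CPM were scaled within a tissue, and RPKM over all tissues with transcript lengths of NCBIM37. Whether the mice are littermates is not stated, so p-values measure the spread between these mice. A genotype and replicate number was read as 1 mouse in all 3 tissues. The most alike pair of libraries differed by more than sampling noise (chi-square per gene 10.9).

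The alternatives were DESeq2 1.42.0 (size factors and Wald test), no filter beyond 1 count, an adjusted p of 0.05, each mouse left out, all 21 libraries in 1 fit, a replicate block, a loess length correction (span 0.3, degree 1) and the length of all exons for RPKM. The length correction without WT 5, gene lists and levels without WT 5 and the within-library ratios were added after the data were seen. A gene of the block and its ratios are not reported here, and p-values were adjusted with them included. Simulated counts had 200 changed genes, drawn at random from all genes tested. There edgeR recovered 19%, 68% and 37% of 2-fold changes with the spread of the brain, liver and skin. It recovered 76%, 91% and 74% of 4-fold changes, with 12, 18 and 6 false calls. Figures and annotation used Python with pandas and matplotlib.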

Additional observations from a re-analysis of the deposited data

Results flagged for a closer look

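Among the 27 WT groups of 5 libraries, 1 per gene and tissue, 4 held a library far from the others by Dixon's test at the 95% level, which chance gives for about 1 group in 20. The brain of WT 5 was the library in 3 of them: Ranbp1 was at 209 CPM where the other WT brains had 91.9 to 110.4, Slc25a1 at 172 CPM where they had 109.9 to 125, and Txnrd2 at 38.2 CPM where they had 23.2 to 26.2. All 3 are short genes of the block, with a longest coding transcript of at most 2143 bases. In the liver, WT 2 was at 17.0 CPM for Zdhhc8 where the other WT livers had 13.7 to 14.6.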

How the results depend on the processing

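On the log2 scale, none of the alternatives run turned a called difference of the 9 genes between WT tissues, and 3 such calls were lost, for Txnrd2 and Slc25a1 as given above. For KI against WT, 350 of the values of single genes kept their direction and side of the threshold, 32 turned direction and 5 passed it. Genes called numbered 0 (brain), 833 (liver) and 4 (skin). With DESeq2's Wald test it was 604, 1489 and 107, with all 21 libraries in 1 fit 614, 242 and 23, and at an adjusted p under 0.05 it was 383 for liver and 0 for skin. Between tissues, the count of 508 for brain and liver was 1389 with DESeq2 and 220 at 0.05, that of 0 for brain and skin was 56 with DESeq2 and that of 18 for liver and skin was 119 with DESeq2. DESeq2 called 1 of the 9 genes in the liver and 1 between brain and liver. Replicate numbers shared by KI and WT mice pair nothing but the number: deviations correlated by -0.0752 to 0.168 over 2 pairs in each tissue. With the replicate block 2165 genes were called in the brain and 0 in the skin, and 2 of the 9 in the brain, Ranbp1 (-0.37) and Hira (0.31); the block turned Slc25a1 in the brain (0.013), Hira in the liver (-0.074) and Dgcr2 (0.00595), Hira (0.067) and Zdhhc8 (0.081) in the skin. A block for the mouse changed none of the calls of the 9 genes between WT tissues. With all 21 libraries Slc25a1 in the brain was at 0.014 and Hira in the liver at -0.00782. The length correction turned Zdhhc8 (-0.073) and Slc25a1 (0.16) in the brain and Ranbp1 (-0.013) in the liver, and with WT 5 left out as well Ranbp1 was at 0.021, Txnrd2 at 0.052, Cdc45 at 0.039, Zdhhc8 at -0.0414 and Slc25a1 at 0.19. The causes of these shifts were not tested. With each mouse left out in turn, genes called ran from 0 to 1698 in the brain (highest without WT 5), 56 to 1290 in the liver (without KI 2 and WT 4), 0 to 1 in the skin, 0 to 881 between brain and liver (without KI 2 and WT 5) and 3 to 32 between liver and skin (without KI 2 and WT 5), and called members from 0 to 1 in the brain (without WT 5) and 0 to 1 in the liver (without WT 4). Fold changes that turned with a mouse left out ran from -0.55 to 0.21 for Cdc45 and -0.12 to 0.078 for Slc25a1 in the brain, from -0.063 to 0.34 for Zdhhc8 and -0.028 to 0.045 for Hira in the liver, and in the skin from -0.81 to 0.058 for Dgcr8, -0.11 to 0.14 for Arvcf, -0.78 to 0.40 for Slc25a1, -0.23 to 0.29 for Txnrd2, -0.12 to 0.015 for Hira and -0.0704 to 0.0053 for Zdhhc8. Between WT tissues they ran from -0.052 to 0.41 for Ranbp1 between brain and skin, and from -0.50 to 0.096 for Slc25a1 and -0.14 to 0.0147 for Ranbp1 between liver and skin. For differences of KI effects they ran from -0.17 to 0.25 for Zdhhc8 and -0.20 to 0.32 for Cdc45 between brain and liver, from -0.37 to 0.78 for Slc25a1, -0.42 to 0.13 for Txnrd2, -0.17 to 0.68 for Cdc45 and -0.37 to 0.065 for Ranbp1 between brain and skin, and from -0.0099 to 0.30 for Zdhhc8, -0.18 to 0.014 for Dgcr8, -0.44 to 0.59 for Slc25a1, -0.076 to 0.13 for Hira and -0.081 to 0.11 for Arvcf between liver and skin. With all exons as the length for RPKM, 104 of 108 orders of 2 genes within a tissue were kept.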
